A study of Homo sapiens with 48 samples.

Results

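The secreted stress factors INHBE and GDF15, with the inhibin beta subunit genes INHBA, INHBB and INHBC beside them, were followed in T47D breast cancer cells that carry one IRS adaptor each. These 5 genes, of 19775 genes with a probe set of their own, were read by 10 of the 54613 probe sets tested. A member's probe set is one for which the platform annotation gives that symbol and no other. INHBE and GDF15 were chosen by their measured late rise after IGF-I in the IRS-1 clones, so their 24 h values in those clones are described and not tested, whereas the 3 other genes were added as relatives and not for their values. INHBE and INHBB have 1 probe set each, INHBC has 2, and GDF15 and INHBA have 3 each.

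The data are 48 arrays (Affymetrix HG-U133 Plus 2.0) of T47D-YA cells, a subline of the human T47D breast cancer line that the study describes as lacking IRS proteins. Stable transfectants with IRS-1, namely clones #10 and #20, and with IRS-2, namely clones #1 and #6, were held in serum-free medium for 24 h and then received IGF-I or the serum-free control (SFM, given in the methods as SFM+FN), and RNA was taken at 4 h or 24 h. Each of the 16 groups of clone, time and treatment has 3 arrays, named A, B and C. Each subline is 1 clone, all are kept under drug selection, and nothing states that the 3 arrays come from separate cultures, so p-values measure the spread between arrays, which may be technical. None of the 48 arrays is of the parental cells, so no comparison with them was made.

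Mean levels of marker genes are given as percentiles over 19775 genes, each represented by its brightest probe set. Luminal epithelial genes (KRT8, KRT18, KRT19, EPCAM, CDH1 and GATA3) were at or above the 99.0 percentile. The basal keratins KRT14 and KRT5 were at the 9.81 and 50.6 percentiles and the leukocyte genes PTPRC and CD3E at 14.8 and 46.2. The 4 fibroblast genes lay between 36.9 (PDGFRB) and 76.9 (COL1A1). Group means ran from 9.49 to 10.82 for COL1A1 and from 8.43 to 9.56 for VIM. The part of these other markers in the results was not tested. The IRS1 probe set 204686_at had a mean log2 value of 5.85 in the IRS-1 clones and 8.27 in the IRS-2 clones, which runs against the labels. On the 4 other IRS probe sets the means lay closer together: IRS1 was at 8.06 and 8.20 on 238933_at and at 4.57 and 4.98 on 242979_at, and IRS2 at 7.07 and 7.09 on 209184_s_at and at 7.28 and 6.90 on 209185_s_at, with the IRS-1 clones first. Only on 209184_s_at was the mean higher in the clones labelled for that isoform (7.09 against 7.07). Whether these probe sets read the introduced IRS transcripts was not tested, and clones are named here as labelled. Replicate arrays correlated between 0.994 and 0.998. A log2 value of 1 more is a doubling of signal, and values of different probe sets cannot be ranked against each other.

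Inhibins and activins are dimers of the TGF-beta superfamily. Beta subunits pair with each other to form activins, or with the alpha subunit INHA to form inhibins, and activins act through the receptors ACVR2A and ACVR2B while FST binds and holds them. INHBE encodes the beta E subunit, best known from liver, and its transcript is known to rise under ER stress and amino acid shortage. GDF15 is a distant member of the superfamily that many cells release under stress and that acts on the brainstem receptor GFRAL with its partner RET. Both genes are known targets of the integrated stress response, in which the transcription factors ATF4 and DDIT3 raise genes for amino acid supply and tRNA charging.

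The sequence upstream of the start is shown for GDF15 and INHBB, since their transcripts differed from SFM in opposite directions at 24 h in the IRS-1 clones. Both come from RefSeq on GRCh38.p14, are on the plus strand and end at the base before the start. Capitals mark E-boxes (CANNTG). Of the 5 genes, 4 were matched to a promoter entry. INHBE had no entry, so its upstream sequence was not searched.
GDF15, chr19:18385908-18386157: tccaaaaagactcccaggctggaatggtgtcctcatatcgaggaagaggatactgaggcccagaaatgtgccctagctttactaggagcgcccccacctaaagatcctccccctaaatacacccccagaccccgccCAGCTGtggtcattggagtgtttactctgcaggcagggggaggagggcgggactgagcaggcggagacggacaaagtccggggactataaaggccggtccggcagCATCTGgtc
INHBB, chr2:120345886-120346135: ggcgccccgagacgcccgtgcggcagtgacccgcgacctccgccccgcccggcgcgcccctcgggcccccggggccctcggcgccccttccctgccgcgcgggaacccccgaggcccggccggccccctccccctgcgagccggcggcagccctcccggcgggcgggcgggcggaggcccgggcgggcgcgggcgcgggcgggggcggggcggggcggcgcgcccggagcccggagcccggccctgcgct

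These 250 bases held 58.4% G and C for GDF15 and 89.6% for INHBB, beside a median of 58% over 35116 promoters. Each was searched on both strands for the core of the C/EBP-ATF response element (TGATGNAA, in 3.14% of all promoters), the palindromic CRE (TGACGTCA, in 1.65%), the short CRE core (TGACG, in 21.2%, which also lies within the palindrome) and the E-box (in 61.8%). The GDF15 sequence held the E-boxes CAGCTG at -114 and CATCTG at -9 counted from the start, and the INHBB sequence held a match to none of these letters. In the gene order of RefSeq the coding gene INHBC lies directly before INHBE on chromosome 12, and the coding gene after INHBE, INHBA and INHBB is a GLI transcription factor gene in each case (GLI1, GLI3 and GLI2).

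INHBE stood far above its control in a single clone. In bulk RNA, more transcript per cell and more cells with the transcript cannot be told apart. In IRS-1 #20 at 24 h its log2 values were 5.29, 5.37 and 5.40 in SFM and 8.85, 8.53 and 8.84 with IGF-I. The difference was 3.39, or 10.5-fold. In that comparison, which helped choose both genes, INHBE ranked 1 and GDF15 ranked 2 of 19775 genes by size of rise. In IRS-1 #10 the values were 4.98, 5.25 and 5.18 in SFM and 5.89, 5.61 and 5.91 with IGF-I. The groups did not overlap there either, but the difference was only 0.67, or 1.59-fold, and INHBE ranked 13. That difference fell under 1.5-fold without replicate A or with normexp background correction. The late rise for which the gene was chosen was therefore 2.72 larger on the log2 scale in one IRS-1 clone than in the other.

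In the IRS-2 clones the 24 h arrays showed no such separation for INHBE. Clone #1 gave 5.33, 5.44 and 5.61 in SFM and 5.45, 5.52 and 5.42 with IGF-I, a difference of 0.0014 (95% interval -0.21 to 0.22, adjusted p = 0.998 in limma). Clone #6 gave 5.42, 5.46 and 5.76 in SFM and 5.74, 5.77 and 5.59 with IGF-I, a difference of 0.15 (-0.06 to 0.37, adjusted p = 0.56). In both clones the treated and control arrays overlapped. The only INHBE probe set had a mean level over all arrays at the 19.4 percentile of probe sets, so small changes may not show.

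GDF15 followed the same order of clones on its probe set 221577_x_at. In IRS-1 #20 at 24 h the log2 values were 7.45, 7.67 and 7.52 in SFM and 10.05, 9.96 and 10.00 with IGF-I, a difference of 2.46 or 5.49-fold. In IRS-1 #10 they were 7.95, 8.17 and 7.99 in SFM and 8.45, 8.50 and 8.51 with IGF-I, a difference of 0.45 or 1.36-fold. All treated arrays of both clones lay above their controls, and only clone #20 passed 1.5-fold. In IRS-2 #1 the values were 7.33, 7.26 and 7.39 against 7.42, 7.20 and 7.44, a difference of 0.03 (-0.13 to 0.18, adjusted p = 0.94). In IRS-2 #6 they were 7.69, 7.76 and 7.67 against 7.69, 7.76 and 7.83, a difference of 0.05 (-0.10 to 0.21, adjusted p = 0.82). These groups overlapped in both IRS-2 clones.

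**Figure D1:**
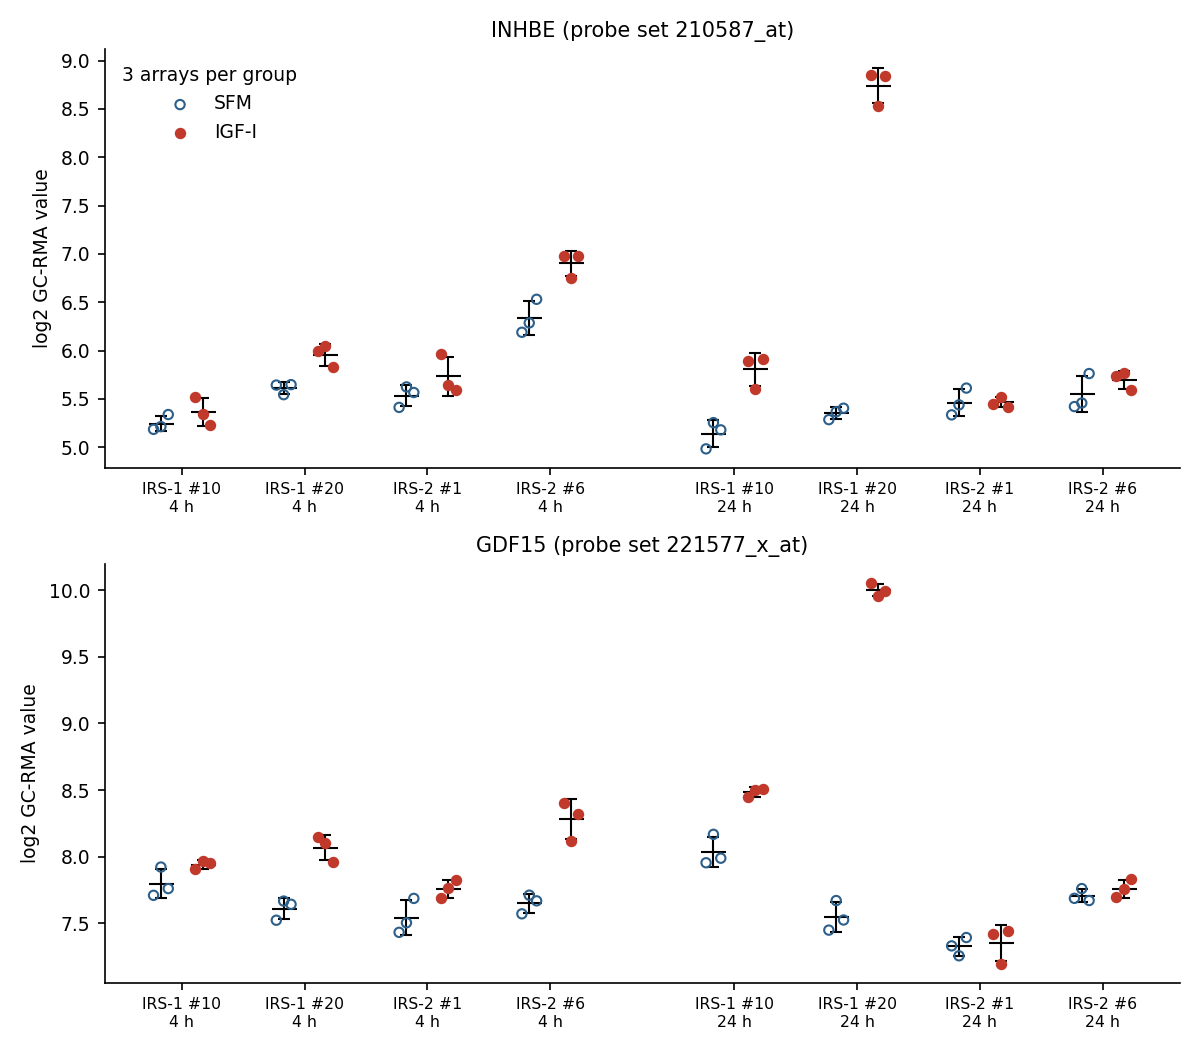
Log2 GC-RMA values of INHBE (top) and of GDF15 probe set 221577_x_at (bottom) for each clone and time, with open circles for SFM, filled circles for IGF-I, and a bar for the mean and SD of 3 arrays. The IGF-I arrays of IRS-1 #20 at 24 h stand above all other groups, with INHBE from 8.53 to 8.85 and GDF15 from 9.96 to 10.05.

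The 3 GDF15 probe sets disagreed in size. In IRS-1 #20 at 24 h, 221576_at read 5.90, 5.95 and 6.05 in SFM and 6.31, 6.24 and 6.20 with IGF-I, a difference of 0.29. Probe set 229868_s_at read 5.03, 5.00 and 4.77 against 5.40, 5.11 and 5.26, a difference of 0.32. Treated arrays lay above controls on each of the 3, but 2 of them showed a small part of the change on 221577_x_at, and the mean over all 3 was 1.02 higher. The mean level of 221577_x_at over all arrays was at the 60.2 percentile of probe sets, against 23.5 for 221576_at and 11.9 for 229868_s_at. The suffixes x and s mark probes that may also match related transcripts, so how much of the 221577_x_at signal comes from GDF15 was not tested.

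At 4 h both genes had their largest differences in an IRS-2 clone, a comparison that had no part in choosing them. GDF15 in IRS-2 #6 read 7.57, 7.71 and 7.67 in SFM and 8.40, 8.11 and 8.32 with IGF-I on 221577_x_at, a rise of 0.63 (SE 0.08) or 1.55-fold with an adjusted p of 9.3e-08 in limma. All treated arrays were above all controls, and this was the only member probe set called at 4 h, where a call means an adjusted p under 0.05 and at least 1.5-fold. Calls made up 0.223% of all probe sets in that comparison, while the 4 h share was 0.0623% for clone #10, 0.11% for #20 and 0.108% for #1. Without replicate A the rise was 0.53 and with normexp background correction 0.54, both under 1.5-fold. The mean over the 3 GDF15 probe sets was 0.20 with an adjusted p of 0.18, since 221576_at gave 0.03 and 229868_s_at gave -0.06.

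INHBE in IRS-2 #6 at 4 h read 6.19, 6.29 and 6.53 in SFM and 6.97, 6.75 and 6.98 with IGF-I. The groups did not overlap, and the difference of 0.57 (adjusted p = 4.7e-04) was 1.48-fold, just under the fold required. It was 0.62 without replicate B or C, which passed both thresholds, and 0.46 with an adjusted p of 0.057 without replicate A. In IRS-1 #20 at 4 h, INHBE read 5.64, 5.54 and 5.65 in SFM and 6.00, 6.05 and 5.83 with IGF-I, a difference of 0.35 with an adjusted p of 0.062. GDF15 on 221577_x_at there read 7.52, 7.67 and 7.64 in SFM and 8.14, 8.10 and 7.96 with IGF-I, a difference of 0.46 with an adjusted p of 1.5e-04, under 1.5-fold, and over the mean of its 3 probe sets 0.12 with an adjusted p of 0.46. On INHBE and on 221577_x_at the treated and control arrays of this clone did not overlap, whereas they did on the other 2 GDF15 probe sets (-0.20 on 221576_at and 0.10 on 229868_s_at).

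The 4 h differences in the other 2 clones were smaller. For INHBE they were 0.12 in IRS-1 #10 and 0.20 in IRS-2 #1, with adjusted p of 0.73 and 0.54. For GDF15 they were 0.14 and 0.22, with adjusted p of 0.45 and 0.20. The clones of an isoform were not shown to differ in response at 4 h. Clone #6 minus #1 was 0.37 (95% interval 0.06 to 0.67) for INHBE and 0.41 (0.19 to 0.63) for GDF15, with adjusted p of 0.9998 and 0.59 in limma. Clone #20 minus #10 was 0.23 (-0.07 to 0.53) for INHBE and 0.31 (0.09 to 0.54) for GDF15, with adjusted p of 0.80 and 0.49. IRS-1 minus IRS-2 clones was -0.15 (-0.37 to 0.06) for INHBE and -0.12 (-0.28 to 0.03) for GDF15 at that time, with adjusted p of 0.89 and 0.86.

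Over the IRS-2 clones together, the GDF15 response was 0.38 lower at 24 h than at 4 h (adjusted p = 0.0012 in limma). Without replicate A this difference was -0.33 with an adjusted p of 0.082, and over the mean of the 3 probe sets it was -0.13 with an adjusted p of 0.56. For INHBE the same difference was -0.31 (95% interval -0.52 to -0.09, adjusted p = 0.14). In the IRS-1 clones the corresponding values were 1.80 for INHBE and 1.15 for GDF15, which the choice of the 2 genes used. An adjusted p under 0.05 at any fold was reached by 5.99% of all probe sets for this change of response with time in the IRS-1 clones and by 2.78% in the IRS-2 clones, by 0.476% for the difference between isoforms at 24 h, and by 1.05% for the difference between clones #20 and #10 at 24 h.

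**Figure D2:**
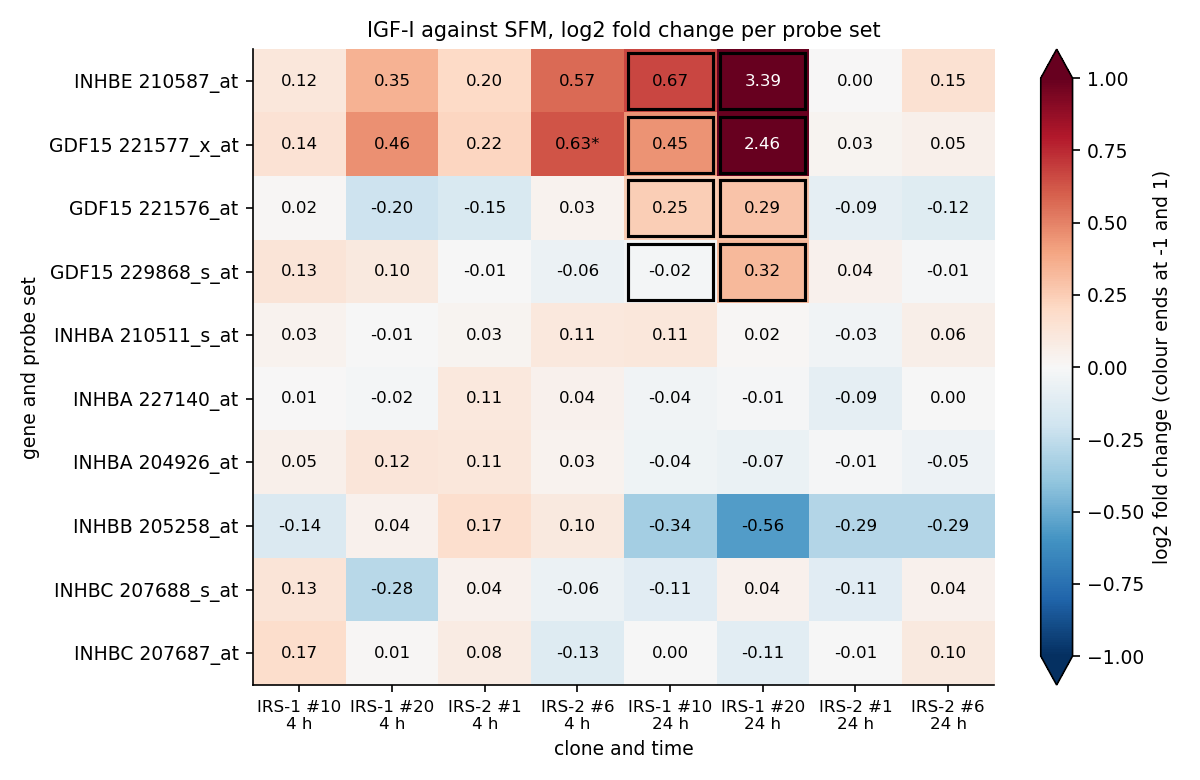
Log2 fold change of IGF-I against SFM for each of the 10 probe sets (rows) in each clone and time (columns), with colour from -1 to 1. Boxes mark the values behind the choice of INHBE and GDF15, and the asterisk marks the 1 other call, GDF15 in IRS-2 #6 at 4 h (0.63).

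INHBB, which encodes the beta B subunit of activin B and inhibin B, was lower with IGF-I at 24 h in every clone. In IRS-1 #20 the log2 values were 11.34, 11.42 and 11.59 in SFM and 10.78, 11.00 and 10.89 with IGF-I, a fall of 0.56 on the log2 scale (adjusted p = 1.1e-07 in limma). In IRS-1 #10 they were 11.57, 11.62 and 11.63 in SFM and 11.28, 11.23 and 11.29 with IGF-I, a fall of 0.34 (adjusted p = 7.2e-04). All treated arrays lay below all controls in both, and neither change reached 1.5-fold.

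The IRS-2 clones gave smaller INHBB values of the same direction. Clone #1 read 10.66, 10.71 and 10.84 in SFM and 10.36, 10.42 and 10.55 with IGF-I, a fall of 0.29 (adjusted p = 0.0099). Clone #6 read 11.75, 11.70 and 11.60 in SFM and 11.36, 11.39 and 11.42 with IGF-I, also a fall of 0.29 (adjusted p = 0.0086). Treated arrays again lay below all controls, although in clone #1 the adjusted p was 0.16 without replicate B and 0.077 without replicate C, and in clone #6 it was 0.080 without replicate A and 0.20 without replicate B. A response of IRS-1 clones beyond that of IRS-2 clones was not shown for INHBB (-0.16, 95% interval -0.30 to -0.01, adjusted p = 0.53).

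An adjusted p under 0.05 at any fold is common at 24 h. It was reached by 8.01% of all probe sets for clone #10, 7.2% for #20, 3.15% for #1 and 3.84% for #6, and in the same order by 3, 4, 1 and 1 of the 10 member probe sets. With the 1.5-fold threshold the shares were 0.251%, 0.251%, 0.0476% and 0.0787%, and the counts of member probe sets were 1, 2, 0 and 0, all of them INHBE and GDF15 values that chose these genes.

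The INHBB difference appeared between 4 h and 24 h. At 4 h its values with IGF-I minus SFM were -0.14 in clone #10, 0.04 in #20, 0.17 in #1 and 0.10 in #6, with adjusted p from 0.33 to 0.84. The change in response from 4 h to 24 h was -0.40 in the IRS-1 clones (adjusted p = 1.0e-04) and -0.43 in the IRS-2 clones (adjusted p = 5.3e-05). Both changes ran in the opposite direction to those of INHBE and GDF15 in IRS-1 cells. In the IRS-2 clones the changes of INHBE (-0.31) and of GDF15 on 221577_x_at (-0.38) had the same sign as that of INHBB.

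**Figure D3:**
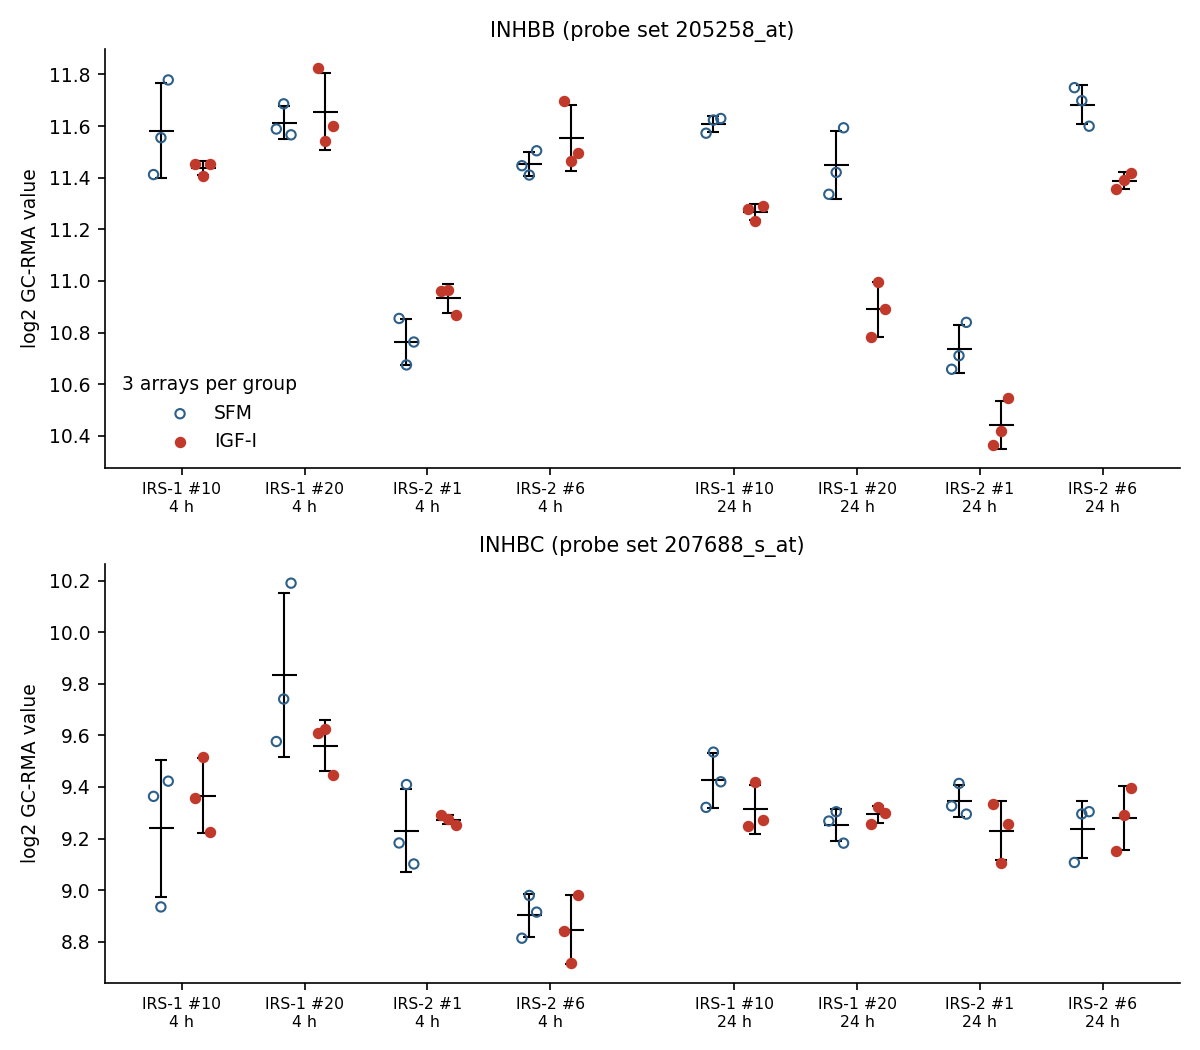
Log2 GC-RMA values of INHBB (top) and of INHBC probe set 207688_s_at (bottom), drawn as open circles for SFM and filled circles for IGF-I with the mean and SD of 3 arrays. At 24 h the INHBB arrays with IGF-I lie below the SFM arrays in each clone, by 0.29 to 0.56, while the INHBC arrays overlap.

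INHBA, the beta A subunit of activin A, passed no test after IGF-I. Its probe sets 210511_s_at, 227140_at and 204926_at had mean log2 values of 7.09, 4.04 and 3.82 over all arrays. These are the 41.6, 3.05 and 1.69 percentiles of all probe sets, so 2 of them sit near the bottom of the scale and can show little. The 24 differences (3 probe sets, 8 comparisons) ranged from -0.09 to 0.12, with 95% intervals between -0.25 and 0.29 and adjusted p of 0.49 or more in limma, and 0 had an unadjusted p under 0.05.

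INHBC, the beta C subunit gene next to INHBE, also passed no test after IGF-I, although its neighbour had the largest rise in IRS-1 #20. Its 2 probe sets gave 16 differences from -0.28 to 0.17, with adjusted p of 0.15 or more in limma and 1 unadjusted p under 0.05. In IRS-1 #20 at 24 h, 207688_s_at read 9.27, 9.30 and 9.18 in SFM and 9.26, 9.32 and 9.30 with IGF-I, a difference of 0.04. Treated and control arrays of INHBC overlapped there.

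The untreated cells differed between clones. In SFM at 4 h, INHBE was 0.80 higher in IRS-2 #6 than in #1 (1.74-fold, adjusted p = 1.2e-07), and INHBB was 0.69 higher in #6 (1.61-fold, adjusted p = 1.5e-10). With normexp INHBE was 0.48 higher, under 1.5-fold, and INHBB 0.68 higher. INHBC on 207688_s_at was 0.60 higher in IRS-1 #20 than in #10 (adjusted p = 8.7e-06), with 9.58, 9.74 and 10.19 in #20 and 9.36, 8.93 and 9.42 in #10. That call was lost without replicate B (0.49) or C (0.51), after quantile normalization (0.55) or normexp (0.57), and over the mean of both INHBC probe sets (0.28). These were 2 and 1 of the 10 member probe sets, beside 1.22% of all probe sets for IRS-2 #6 against #1 and 3.69% for IRS-1 #20 against #10.

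Between isoforms in SFM at 4 h, 7.21% of all probe sets were called and 0 of the 10 member probe sets. INHBE was 0.51 lower in the IRS-1 clones (adjusted p = 1.5e-07) and INHBB 0.49 higher (adjusted p = 1.1e-11), both under 1.5-fold. With 2 clones an isoform, and the 2 IRS-2 clones themselves apart by more than this for both genes, the isoform and the clone cannot be told apart in these levels.

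The high INHBE level of IRS-2 #6 did not last. In SFM it went from 6.19, 6.29 and 6.53 at 4 h to 5.42, 5.46 and 5.76 at 24 h, a fall of 0.79 on the log2 scale (adjusted p = 4.1e-07), and with IGF-I it was 6.97, 6.75 and 6.98 at 4 h and 5.74, 5.77 and 5.59 at 24 h. It was the only member probe set called among SFM comparisons of the 2 times, and with normexp it fell by 0.48, under 1.5-fold. The share of all probe sets called was 0.482% for that clone, 0.229% for #1, 0.022% for #10 and 0.699% for #20. INHBC on 207688_s_at fell by 0.58 in SFM of IRS-1 #20, just under the fold required (adjusted p = 5.5e-05), and was past it without replicate A (-0.72), without replicate B (-0.66) or after median centring (-0.62). The comparisons of times in SFM share arrays with the comparisons of IGF-I with SFM.

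Ordered by group mean, INHBE was highest in IRS-1 #20 with IGF-I at 24 h (8.74 ± 0.18, SD, n = 3), then in IRS-2 #6 at 4 h with IGF-I (6.90 ± 0.13) and with SFM (6.34 ± 0.18). No arrays of these 3 groups overlapped with the next, whereas each of the 13 lower groups overlapped with its neighbour, down to IRS-1 #10 in SFM at 24 h (5.14 ± 0.14). GDF15 on 221577_x_at was highest in IRS-1 #20 (10.00 ± 0.05) and then in IRS-1 #10 (8.48 ± 0.03), both with IGF-I at 24 h, and every group from the IRS-2 #6 IGF-I arrays at 4 h (8.28 ± 0.15) down to the SFM arrays of IRS-2 #1 at 24 h (7.33 ± 0.07) overlapped with its neighbour. INHBB spanned 11.68 ± 0.08 in SFM of IRS-2 #6 at 24 h to 10.44 ± 0.09 with IGF-I in IRS-2 #1 at 24 h, and the arrays of that lowest group were separate from the next.

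The genes most like INHBE were sought by their differences over the 8 comparisons of IGF-I with SFM, as a description. Among 182 genes whose log2 values averaged 5 or more and which changed by 1.5-fold or more somewhere, the 8 with the highest Pearson correlation were SARS1 (0.992), GDF15 (0.992), DDIT3 (0.991), KLHDC7B (0.990), CLGN (0.988), ERN1 (0.986), TRIB3 (0.980) and CARS1 (0.976). For GDF15 the list was the same with INHBE in its own place, led by DDIT3 (0.993). SARS1 and CARS1 charge tRNA with serine and cysteine, DDIT3 (CHOP) and TRIB3 act in the stress response, ERN1 (IRE1) is a sensor of unfolded proteins, and CLGN is a chaperone of the endoplasmic reticulum. The 8 points share clones and probe sets, and 1 of them carries most of each value. That point, IRS-1 #20 at 24 h, helped choose INHBE and GDF15. Apart from INHBE and GDF15, each gene named here reached 1.5-fold in that comparison only, so the search favoured a peak there. Without IRS-1 #20 at 24 h, the correlation of INHBE with GDF15 was 0.893 over 7 comparisons, with TRIB3 0.839, with SARS1 0.820 and with DDIT3 0.792. It was 0.778 with CARS1, 0.732 with KLHDC7B, 0.663 with CLGN and 0.609 with ERN1. The values for GDF15 then ran from 0.529 (KLHDC7B) to 0.910 (DDIT3), with SARS1 at 0.584 and TRIB3 at 0.681.

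In IRS-1 #20 at 24 h these genes had log2 differences of 1.77 for KLHDC7B, 1.15 for TRIB3, 1.12 for CLGN, 1.07 for DDIT3, 0.90 for ERN1, 0.66 for CARS1 and 0.64 for SARS1. In IRS-1 #10 they ranged from -0.004 for CLGN to 0.48 for TRIB3. Taking the 16 group means centred within each clone in place of the 8 differences, 3 of the 8 genes named for INHBE and 4 of those for GDF15 stayed among the 8 most like them. Those that stayed were GDF15, CLGN and CARS1 for INHBE, and INHBE, CLGN, SARS1 and CARS1 for GDF15. DDIT3 and TRIB3 then ranked 33 and 31 for INHBE, and 26 and 22 for GDF15.

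**Figure D4:**
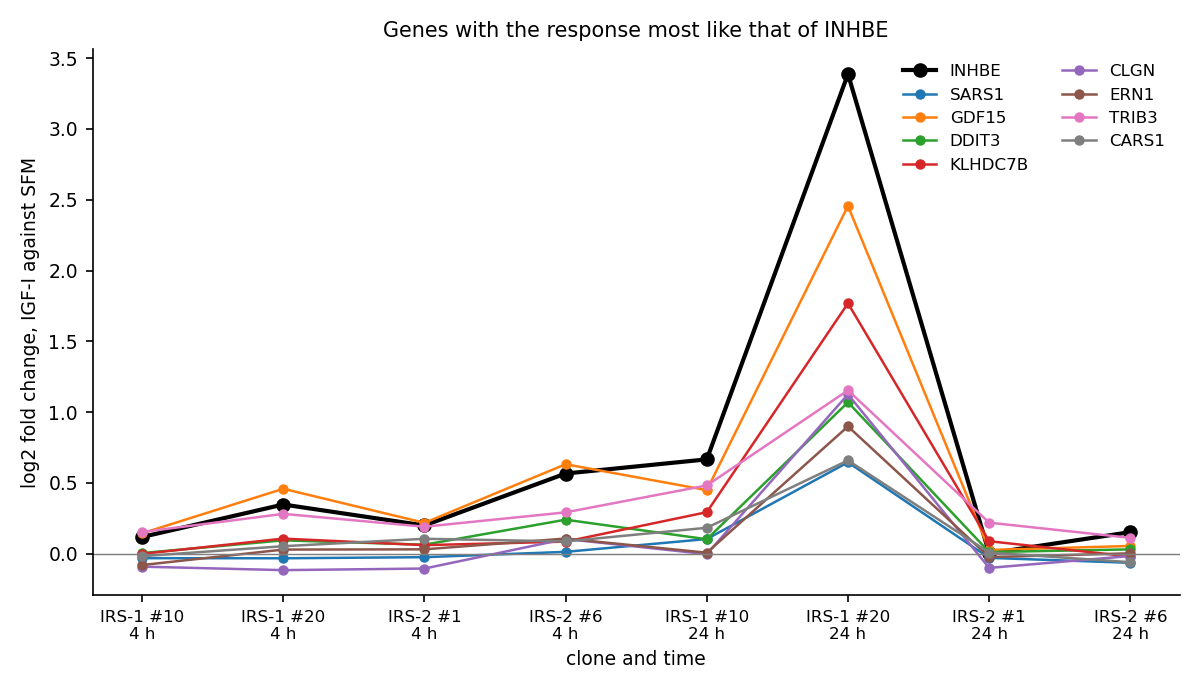
Log2 fold change of IGF-I against SFM (vertical axis) in each clone and time (horizontal axis) for INHBE and the 8 genes whose responses correlate most with it. Each line has its peak in IRS-1 #20 at 24 h, from 0.64 for SARS1 to 3.39 for INHBE. That comparison helped choose INHBE, and apart from GDF15 the genes beside it reached the required 1.5-fold only there.

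Of 24 genes of ATF4 and the integrated stress response, a list drawn up with earlier results of these arrays known, 13 were called higher in IRS-1 #20 and 3 in IRS-1 #10 at 24 h, and 0 in either IRS-2 clone. The shares of all genes called higher were 0.268% in clone #20, 0.197% in #10, 0.0101% in #1 and 0.00506% in #6. The list's median difference was 0.64 in clone #20, 0.30 in #10, 0.04 in #1 and 0.0057 in #6, while the median of all genes lay between -0.01 and 0.01 in each. No gene of the list was called lower in these 4 comparisons.

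Members of the list that rose in IRS-1 #20 make or import amino acids (ASNS by 1.83, PSAT1 by 1.21, SLC7A5 by 0.97 and SLC7A11 by 0.95), or encode the transcription factors ATF4 (0.78), CEBPG (0.90) and CEBPB (0.67), the glutathione-degrading enzyme CHAC1 (0.85), the secreted stanniocalcin STC2 (1.22), the tRNA exporter XPOT (0.71) and SESN2 (0.61), a brake on mTORC1. In IRS-1 #10 the 3 called were ASNS (0.96), PSAT1 (0.95) and SLC7A5 (0.85), while DDIT3 was at 0.10 and ATF4 at 0.27. FGF21, a stress hormone known to follow ATF4, was at 0.14 in #20. SESN2 fell under the fold threshold after quantile normalization (0.57) or normexp (0.58).

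At 4 h the list had 1 call over the 4 clones, the stress transcription factor ATF3 in IRS-2 #6 (0.69, adjusted p = 1.4e-09), in the same comparison as the GDF15 call. In that comparison 0.273% of all genes were called higher. DDIT3 was at 0.24 and TRIB3 at 0.29 there, under 1.5-fold.

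**Figure D5:**
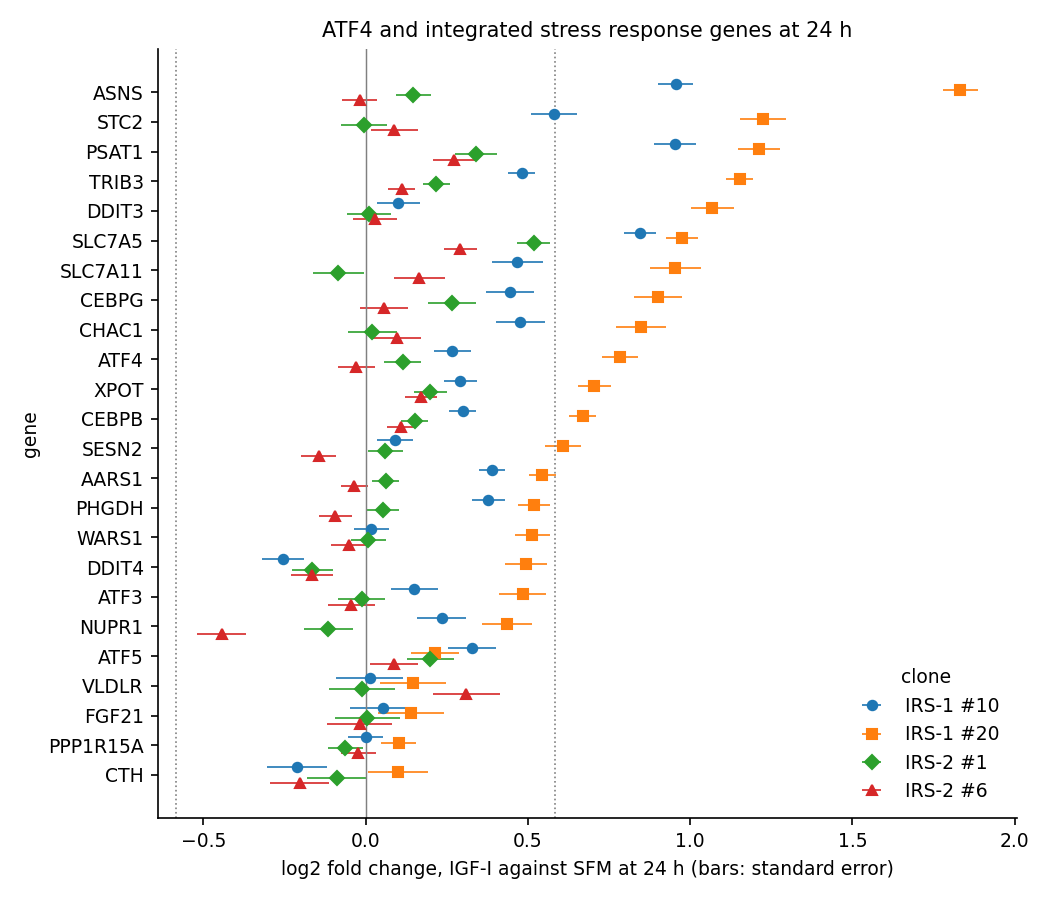
Log2 fold change of IGF-I against SFM at 24 h (horizontal axis, bars give the standard error) for the 24 ATF4 and integrated stress response genes (vertical axis), with a symbol for each clone and dotted lines at 1.5-fold. The points of IRS-1 #20 lie to the right of the line for 13 genes, up to 1.83 for ASNS.

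None of the 15 genes of activin and inhibin signalling was called in any of the 8 comparisons, although without replicate A BAMBI was called lower in IRS-1 #10 at 24 h (-0.61). At any fold, 5 of the 15 had an adjusted p under 0.05 there, all lower: BAMBI (-0.54), a decoy receptor of the family, BMPR2 (-0.32), INHA (-0.31), the inhibitory SMAD7 (-0.28) and the activin receptor ACVR1B (-0.18). That criterion was met in this comparison by 8.01% of all probe sets, of which 1626 were higher and 2749 lower. In the other 7 comparisons 0 to 2 genes were lower and 0 to 1 higher on that criterion, which 1.62% to 7.2% of all probe sets met. ACVR2A ranged from -0.17 to 0.14 and FST from -0.07 to 0.11, and ACVR2B was -0.22 in IRS-2 #1 at 4 h (adjusted p = 0.045), while the adjusted p of the alpha subunit INHA in IRS-1 #10 at 24 h was 0.0089, both under 1.5-fold. For GDF15, 5 of 6 receptor and convertase genes were measured, with GFRAL not listed, and 0 were called, with RET between -0.07 and 0.24.

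Among 12 other ligands of the superfamily, TGFB2 alone was called, higher at 4 h in clones #20 (1.31), #1 (1.63) and #6 (1.85), and it stood at 0.28 in #10. The shares of all genes called higher at 4 h were 0.0556% in #20, 0.126% in #1 and 0.273% in #6. At 24 h TGFB2 was between -0.24 and 0.05, so it was high at the time when INHBE and GDF15 in IRS-1 #20 were not yet past 1.5-fold. A further list held 12 ER folding and stress genes (HSPA5, HSP90B1, DNAJB9, SDF2L1, HERPUD1, PDIA4, CALR, XBP1, CRELD2, MANF, SEL1L and EDEM1), not all of them chaperones. Of these, 0 were called in any comparison, though 7 had a smaller rise with an adjusted p under 0.05 in IRS-1 #20 at 24 h. The list's median there was 0.22, beside 0.0058 for all genes. At any fold 7.2% of all probe sets had an adjusted p under 0.05 in that comparison, 2687 higher and 1243 lower. Of 15 genes induced by p53, another known regulator of GDF15, 12 were measured, and the calls were FAS higher in IRS-1 #20 (0.62) and TP53INP1 lower in IRS-1 #10 (-0.60) at 24 h. In those comparisons 0.268% of all genes were called higher in #20 and 0.101% lower in #10. FAS lost its call without replicate A (0.56), and TP53INP1 without replicate C (-0.57) and after quantile normalization (-0.58).

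RNA integrity was read from the difference between the 3' and 5' probe sets of ACTB on each array. Its group mean was 0.19 in SFM and 0.16 with IGF-I in IRS-1 #20 at 24 h. With that difference as a covariate the change there was 3.36 for INHBE, 2.44 for GDF15 on 221577_x_at and -0.58 for INHBB, beside 3.39, 2.46 and -0.56 without it.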

How the data were processed

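RNA of 48 samples was hybridised to HG-U133 Plus 2.0 arrays. The authors summarised the probe sets by GC-RMA in GeneData Refiner (the submitters' notes name GCRMA, with no version), and the deposited values are on a log2 scale, from 3.13 to 15.36 with array medians of 7.39 to 7.51. Without intensities or detection calls, the distance of a value from background cannot be given.

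Symbols come from the platform annotation, where 41091 of the tested probe sets have a single symbol, 1801 several and 11721 none. A gene with several probe sets was represented, outside the 5 genes of interest, by the brightest. After removal of 62 Affymetrix controls, limma 3.58.1 under R 4.3.3 was run on 54613 probe sets with 1 mean for each of the 16 groups, empirical Bayes variances with an intensity trend and 32 residual degrees of freedom. Calls needed a Benjamini-Hochberg adjusted p under 0.05 over all probe sets and a change of 1.5-fold or more. Dim probe sets were kept, and limma's p-values are two-sided. A filter at a log2 value of 5 on at least 3 arrays would keep 8 of the 10 member probe sets.

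The members, gene lists and tests were chosen with earlier results of these data known. Genes named beyond the members were, for each list, the up to 4 with the largest change among those called and some known ligand, receptor and target genes, and the 8 with the highest correlation with INHBE and with GDF15. Further called genes of the stress list, FGF21, INHA and 4 further genes of activin signalling were named after their values were seen. Alternatives were quantile normalization, median centring, normexp with offset 50, the dim filter, a fit to the arrays of 1 comparison, variances without trend, the methods' t-test (unadjusted or adjusted), Bonferroni adjustment, other fold thresholds, the replicate letter as a block, the ACTB covariate, averaging over a gene's probe sets, and each letter left out. On simulated data over 54613 probe sets with 200 changed, 1.6-fold changes were recovered at 79.1% for IRS-1 #10 at 4 h and 89.6% for IRS-1 #20 at 24 h. Promoter sequences and gene order were read from RefSeq tables, with promoters on GRCh38.p14, and the motifs were searched as the letters given above. Figures were drawn in matplotlib 3.10.9 (Python 3.11.15, pandas 2.3.3, numpy 2.4.6).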

Additional observations from a re-analysis of the deposited data

Results flagged for a closer look

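In 10 instances a response differed between clones, isoforms or times, with the arrays as replicates and an adjusted p under 0.05 at any fold. That was reached by 5.99% of all probe sets for the change of response with time in the IRS-1 clones, 2.78% in the IRS-2 clones, 0.476% for isoforms at 24 h and 1.05% for #20 minus #10 at 24 h. For 7 of the 10, the values that chose INHBE and GDF15 are part of the difference, so they are descriptions with no test. The IRS-1 response minus the IRS-2 response at 24 h was 1.95 on the log2 scale for INHBE and 1.41 for GDF15 (221577_x_at). The response at 24 h minus that at 4 h in the IRS-1 clones was 1.80 for INHBE, 1.15 for GDF15 on 221577_x_at and 0.36 on 221576_at. The response of IRS-1 #20 minus that of IRS-1 #10 at 24 h was 2.72 for INHBE and 2.01 for GDF15, and in each case clone #20 held the larger part of the isoform's value.

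The 3 others had no part in the choice and were tested in limma. INHBB changed its response from 4 h to 24 h by -0.40 in the IRS-1 clones (adjusted p = 1.0e-04) and by -0.43 in the IRS-2 clones (adjusted p = 5.3e-05), and was lower with IGF-I in all 12 arrays at 24 h than in the controls of the same clone. The GDF15 response in the IRS-2 clones changed by -0.38 (adjusted p = 0.0012), on 1 of its 3 probe sets.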

How the results depend on the processing

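No called value of a member reversed its direction under any setting tried, while 52 of 768 recomputed medians of gene lists changed sign, all between values of at most 0.09 in size. Of 248 recomputed counts of called member probe sets 222 stayed within 1.5 times the reported count, and of the single gene values 17 dropped below and 17 passed a threshold. With no fold threshold the counts at 24 h became 3 for clone #10, 4 for #20, 1 for #1 and 1 for #6, and those at 4 h became 1 for #20 and 2 for #6. At 2-fold, with normexp, or with the methods' t-test after adjustment, the count was 0 in IRS-2 #6 at 4 h and in IRS-1 #10 at 24 h. Leaving out 1 letter gave 0 to 2 in IRS-2 #6 at 4 h and 0 to 1 in IRS-1 #10 at 24 h, where INHBE was 0.54 without replicate A and 0.35 with normexp. For SFM at 24 h against 4 h the count in IRS-1 #20 was 1 after median centring and 0 to 1 with a letter left out, and in IRS-2 #6 it was 0 with normexp. For SFM at 4 h, IRS-1 #20 against #10 gave 0 after quantile normalization or normexp and 0 to 1 with a letter left out, IRS-2 #6 against #1 gave 1 with normexp, where INHBE was at 0.48, and IRS-1 against IRS-2 gave 0 to 1 with a letter left out. INHBB in IRS-1 #20 at 24 h passed 1.5-fold after quantile normalization (-0.59) or without replicate B (-0.63). With the methods' t-test after adjustment the adjusted p of INHBB at 24 h was 0.045 in #10, 0.16 in #20, 0.22 in #1 and 0.15 in #6, the stress list had 5 genes called in #20 and 2 in #10, and TGFB2 had no call. The cause of these shifts was not tested. The letters share only a name (3 of 24 pairs of arrays correlated above 0.1, range -0.47 to 0.31), and the replicate block gave 1 call for #6 at 4 h, and at 24 h 1 for #10 and 2 for #20, as without it. With 3 arrays a group, precision is limited, and signal over background is unknown. The dimmest INHBA and GDF15 probe sets, and the INHBE probe set where its level is low, may therefore hide changes.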
